A study of Homo sapiens with 6 samples.

Results

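Transcript levels of receptor tyrosine kinases other than FGFR3 were examined in 3 human myeloma cell lines. Probe sets annotated to a listed receptor gene and to no other gene were taken, and each gene was represented by the probe set with the highest mean log2 value over the 6 arrays. Of 48 listed receptors, 46 had such a probe set, among 19775 genes in all. EPHB2 had no probe set named here, and the 4 probe sets of DDR1 are also annotated to a microRNA gene. OPM2, ARP1 and OCI-MY5 are established lines from patients with multiple myeloma, a malignancy of plasma cells. Each line was split by a cell sorter on the surface protein CD24, and RNA of the CD24+ and of the CD24- fraction was hybridised to 1 array each. The groups were therefore 3 CD24+ and 3 CD24- arrays, or 2 arrays for each of OPM2, ARP1 and OCI-MY5. The submitters describe the CD24+ fractions as cancer stem cell populations, and no label says that arrays came from separate cultures, so the spread between arrays may be in part technical.

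Receptor tyrosine kinases span the plasma membrane, bind a ligand outside the cell and carry a kinase domain inside it. Ligand binding brings receptors together, the kinases phosphorylate each other on tyrosine, and adaptors docked there pass the signal to the RAS-MAPK and PI3K-AKT pathways. In myeloma, IGF1 and HGF are known growth factors that act through IGF1R and MET, and FGFR3, which is not among the genes described, is placed under immunoglobulin enhancers by a recurrent translocation.

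The 6 arrays held the transcripts of the labelled cell type. All 9 plasma cell markers examined, among them SDC1, TNFRSF17 and IRF4, lay above background on all 6 arrays. Of 4 T cell markers, CD3D and CD3G lay below it on every array, CD3E passed on the CD24+ arrays of OPM2 (129) and ARP1 (105), and CD2 on both OPM2 arrays (150 and 132). Of 3 monocyte markers, CD14 and MS4A7 lay below it on every array and LYZ passed on the OPM2 CD24+ array alone, at 108. Of 7 markers of stroma and endothelium, 6 passed on the OPM2 CD24+ array and 1 to 3 on each other array. The endothelial marker PECAM1 read 402 and 239 in OPM2, 157 and 87.5 in ARP1, and 92.0 and 105 in OCI-MY5. It was called higher in OPM2 than in OCI-MY5 (limma, adjusted p = 0.0364), but did not pass the F test over the 3 lines. The part of other cells in the results was not tested. HBB, an erythroid marker, was above background on 5 arrays, at 2298 and 1792 in OPM2, and COL1A1 on all 6, at 181 to 369. FGFR3 had intensities of 55028 and 44707 on the OPM2 arrays, against 58.7 to 383 on the other 4. The CD24+ array of OPM2 stood apart: its median intensity was 135, against 69 to 84.2 on the others. Its spike-in controls had a geometric mean of 45533, against 7395.5 to 8972 on the others. The ACTB 3′ over 5′ ratio, which grows as RNA becomes shorter, was 27.1 there and 7.54 on the OPM2 CD24- array. On the CD24+ and CD24- arrays it was 9.36 and 23.2 in OCI-MY5, and 2.63 and 2.47 in ARP1. The ratio thus differed between lines too, and its part in the line differences was not tested. Background is the highest of 18 values of TrpnX, a bacterial transcript outside the usual spike-in controls, over the 6 arrays. It was 96.4 intensity units and came from the OPM2 CD24+ array.

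INSR, NTRK3, MET and FGFR4 were the receptors that passed the test in OPM2 against both other lines, so the 150 bases before their annotated start sites are shown, 5′ to 3′ on the gene's strand. They are from RefSeq, build GRCh38.p14. Capitals mark the GC box, GGGCGG or its complement CCGCCC, with overlapping copies counted apart. The windows are chr19:7294415-7294564 on the minus strand for INSR, chr15:88256740-88256889 on the minus strand for NTRK3, chr7:116672046-116672195 on the plus strand for MET and chr5:177086765-177086914 on the plus strand for FGFR4.
INSR: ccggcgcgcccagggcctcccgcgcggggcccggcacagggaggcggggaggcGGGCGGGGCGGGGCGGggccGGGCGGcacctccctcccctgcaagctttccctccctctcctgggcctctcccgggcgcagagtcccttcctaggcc
NTRK3: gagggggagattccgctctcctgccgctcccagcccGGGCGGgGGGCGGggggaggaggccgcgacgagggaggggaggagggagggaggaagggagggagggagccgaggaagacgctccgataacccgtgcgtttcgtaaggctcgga
MET: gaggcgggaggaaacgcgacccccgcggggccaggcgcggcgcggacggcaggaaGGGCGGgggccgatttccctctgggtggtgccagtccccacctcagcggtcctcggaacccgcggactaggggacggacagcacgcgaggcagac
FGFR4: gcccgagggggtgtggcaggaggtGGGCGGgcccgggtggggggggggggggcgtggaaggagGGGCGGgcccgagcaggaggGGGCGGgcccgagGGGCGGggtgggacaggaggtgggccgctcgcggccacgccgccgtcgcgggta
INSR has 4 such boxes in this window, FGFR4 4, NTRK3 2 and MET 1. The box therefore stands before receptors that were high in OPM2 and before receptors that were low there. Within 250 bases before the start, 32 of the 43 receptors with a promoter entry held it (74.4%), against 42.3% of 27303 promoters of all genes. It was found in 15 of 18 promoters of receptors above background in at least 1 line and in 17 of 25 of the others. The median GC content of these windows was 68.4% for the receptors and 58.0% for all genes. The letters TATAAA, on either strand, occurred in 2 of the 43 receptor promoters (4.65%), against 11.1% of all promoters. These are counts of letters, not of bound sites.

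Receptors above background were fewer, as a share, than genes above background on every array. On the CD24+ and CD24- arrays, 29 and 14 of the 46 receptors lay above background in OPM2, 19 and 20 in ARP1, and 16 and 16 in OCI-MY5. Of all 19775 genes, 67.9% and 52.8% did so in OPM2, 58.4% and 56.8% in ARP1, and 55.4% and 54.3% in OCI-MY5. On both of its arrays, OPM2 had 14 receptors above background (30.4%), against 49.9% of all genes. ARP1 had 16 (34.8%, all genes 53.3%) and OCI-MY5 had 12 (26.1%, all genes 51.1%). In bulk RNA, fewer cells with a transcript and less of it per cell cannot be told apart. With each array's own highest TrpnX value as the limit the 3 counts were 20, 21 and 23, so the order of the lines was not kept.

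**Figure D1:**
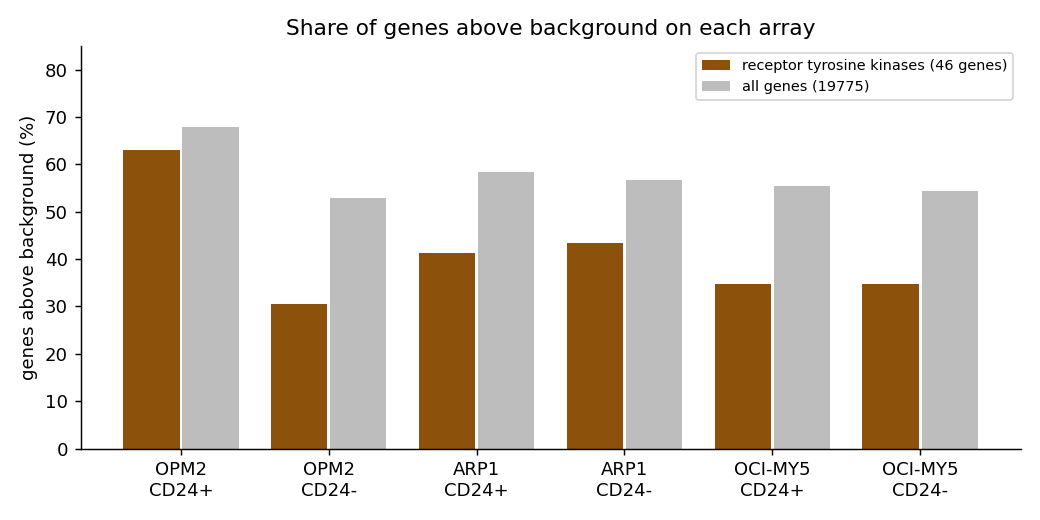
Bars give the percentage of genes above the highest TrpnX control value on each array, for the 46 receptors (brown) and for all 19775 genes (grey), with CD24+ left of CD24- in each line. The receptor bars are lower than the bars of all genes on each array, and the OPM2 CD24+ array, at 29 receptors and 67.9% of genes, is the highest of each kind.

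The set found in all 3 lines held 8 of the 46 receptors (17.4%, against 44.2% of all genes): INSR, IGF1R, FGFR1, MET, TYRO3, ROR1, DDR2 and RYK. In at least 1 line, 20 of the 46 receptors were above background on both arrays, against 11630 of all 19775 genes. For 8742 of those genes this held in all 3 lines. Apart from the 8 receptors in all 3 lines, 12 were above background on both arrays of 1 or 2 lines. These were CSF1R and NTRK3 in OPM2, ERBB3, LTK and PTK7 in ARP1, MERTK in OCI-MY5, FGFR2 in OPM2 and OCI-MY5, FGFR4 and EPHB6 in ARP1 and OCI-MY5, and FLT1, NTRK2 and EPHB1 in OPM2 and ARP1. The remaining 26 were above background on both arrays of no line, as were 8145 of all 19775 genes. Of these 26, 13 were above background on no array (28.3% of the receptors, against 21.5% of all genes), with intensities of 2.48 to 90.9. They include the stem cell factor receptor KIT, the VEGF receptors KDR and FLT4, the angiopoietin receptor TEK with its relative TIE1, PDGFRB, ERBB4, the MET relative MST1R, ROS1, ROR2, EPHA2, EPHA3 and EPHB3. The other 13 passed on some arrays but on both arrays of no line: ALK, AXL, EGFR, EPHA1, EPHA4, EPHA5, EPHA7, EPHB4, ERBB2, FLT3, MUSK, PDGFRA and RET. Of these, EPHA1, EPHA5, EPHA7, FLT3, MUSK and PDGFRA passed on the OPM2 CD24+ array alone, the array with the high median and spike-ins; the part of those in this result was not tested. FLT3, the receptor for FLT3 ligand, read 197 there and 15.0 on the OPM2 CD24- array, with 10.1 to 42.2 on the others. In all, 15 receptors were above background on the OPM2 CD24+ array and below it on the OPM2 CD24- array. Of all 19775 genes, 13428 were above background on the OPM2 CD24+ array and 9877 on both OPM2 arrays. The share of all genes that passed on the OPM2 CD24+ array alone was not counted.

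**Figure D2:**
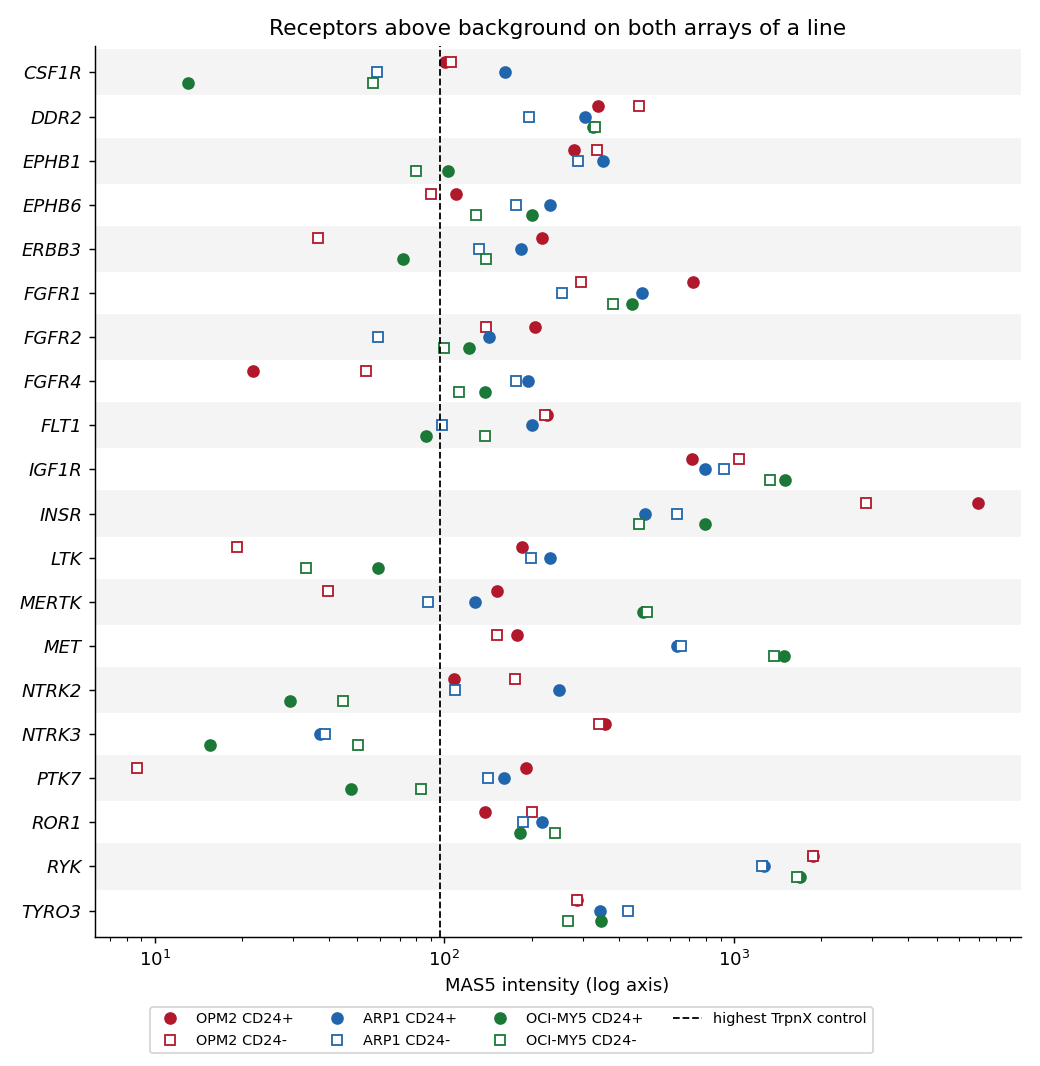
MAS5 intensity (log axis) of the 20 receptors above background on both arrays of at least 1 line. Filled circles are CD24+ and open squares CD24- arrays, lines differ in colour, and the dashed line is the background limit of 96.4. Levels of different receptors come from different probes and are not comparable. INSR of OPM2, at 6976 and 2851, lies right of the other lines, and LTK and PTK7 of OPM2 lie on both sides of the limit.

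Between the lines, 6 of the 24 receptors bright enough to test differed: MET, NTRK3, EPHB1, INSR, FGFR4 and MERTK. That is 25%, against 28.5% of the 12078 genes tested, so receptors passed about as often as genes in general. The test was limma's moderated F over the 3 lines on log2(intensity + 16), adjusted over all genes tested, and the replicates of a line were its CD24+ and its CD24- array. Against ARP1, OPM2 had 2 receptors higher (INSR and NTRK3; 10.1% of all genes were higher) and 2 lower (MET and FGFR4; 14.8% of genes lower). Against OCI-MY5, OPM2 had 3 higher (INSR, NTRK3 and EPHB1; 11.4% of genes) and 3 lower (MET, FGFR4 and MERTK; 14.7% of genes). ARP1 had 1 receptor higher than OCI-MY5 (EPHB1; 1.78% of genes) and 1 lower (MET; 0.836% of genes). Only 2 arrays stand for each line, which limits the precision. The F count was 2 without either OCI-MY5 array or without the ARP1 CD24+ array, 3 without the ARP1 CD24- array, 8 without the OPM2 CD24+ array and 10 without the OPM2 CD24- array. MET and NTRK3 passed the F test in each of these 6 fits. Such a fit leaves a line with 1 array, which is then assumed to vary like the other lines. The share of all genes that passed the F test fell and rose with the F count, so that count does not set receptors apart. The numbers of all genes called in each contrast moved as well, so the contrast counts that follow do not set receptors apart either. OPM2 minus ARP1 had 1 call without either ARP1 array and 7 without the OPM2 CD24+ array. OPM2 minus OCI-MY5 had 3 calls without the OCI-MY5 CD24+ array, 2 without its CD24- array and 10 without the OPM2 CD24- array. ARP1 minus OCI-MY5 had 0 without any 1 of the ARP1 and OCI-MY5 arrays and 4 without either OPM2 array. The median difference over the 24 receptors was −0.03 for OPM2 minus ARP1, 0.22 for OPM2 minus OCI-MY5 and 0.29 for ARP1 minus OCI-MY5, against −0.04, 0.00 and 0.04 over all genes.

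**Figure D3:**
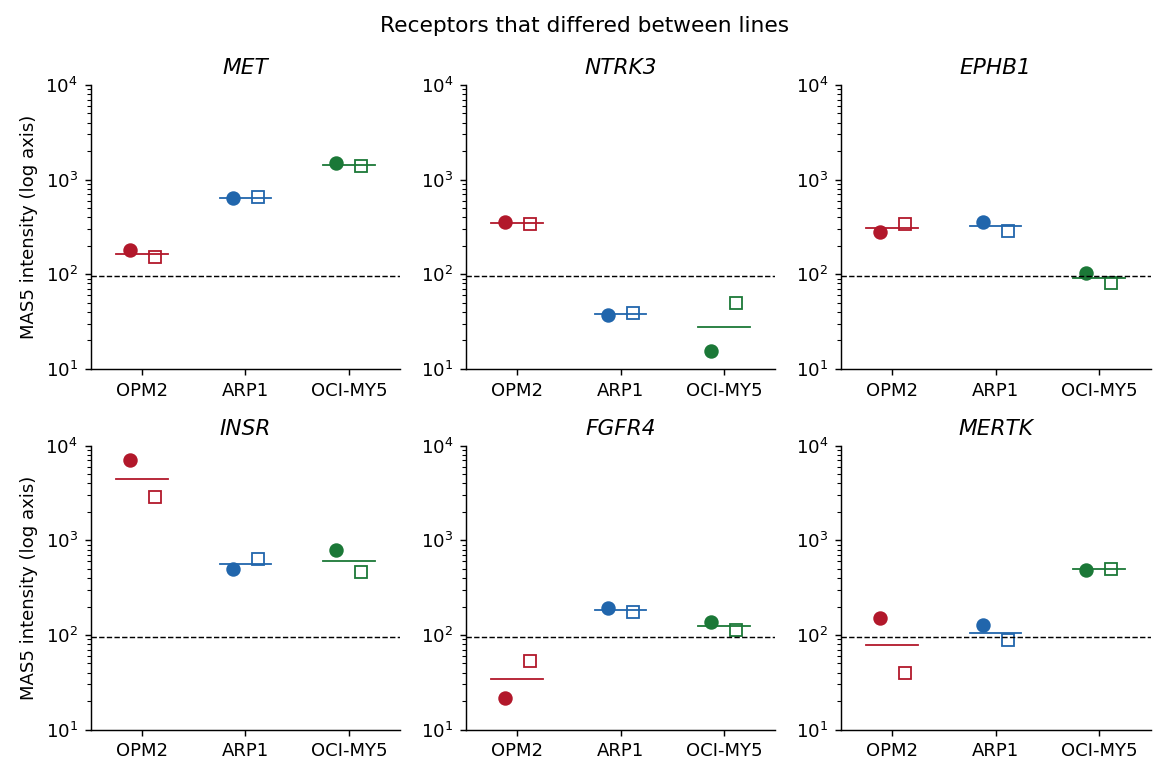
MAS5 intensity (log axis) of the 6 receptors that differed between lines, in order of adjusted p, with OPM2, ARP1 and OCI-MY5 from left to right. Filled circles are CD24+ and open squares CD24- arrays, the bar is their geometric mean, and the dashed line is background. MET stands lowest in OPM2 and highest in OCI-MY5, and NTRK3 passes the limit in OPM2 alone.

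Within the insulin receptor family, INSR and IGF1R were above background on all 6 arrays, and INSR was higher in OPM2. INSR, the receptor for insulin, read 6976 and 2851 on the CD24+ and CD24- arrays of OPM2, against 493 and 633 in ARP1 and 796 and 469 in OCI-MY5. Both OPM2 arrays were above all 4 others, and the OPM2 arrays lay further apart than those of the other lines. The log2 difference was 2.96 (SE 0.50) for OPM2 minus ARP1 and 2.84 (SE 0.50) for OPM2 minus OCI-MY5 (limma, adjusted p = 0.0153 and 0.0162). The 4 other INSR probe sets were also higher on average in OPM2 than in either line, with differences of 0.27 to 1.78 against ARP1 and 1.43 to 2.5 against OCI-MY5. The OPM2 minus ARP1 call was lost without the CD24+ array of ARP1 (adjusted p = 0.101) and without its CD24- array (0.0832), and the OPM2 minus OCI-MY5 call without the CD24+ array of OCI-MY5 (0.0566) and without its CD24- array (0.0927). IGF1R, the receptor for insulin-like growth factors, read 717 and 1038 in OPM2, 794 and 927 in ARP1, and 1499 and 1333 in OCI-MY5. OCI-MY5 was highest on both arrays, but the difference did not pass (F adjusted p = 0.113). On 2 other IGF1R probe sets the order was another one: 203628_at read 586 and 691 in OPM2, 272 and 110 in ARP1, and 692 and 517 in OCI-MY5, with ARP1 lowest, and 203627_at was likewise lowest in ARP1.

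MET, the receptor for hepatocyte growth factor, was ordered the same way in both fractions. It read 178 and 152 in OPM2, 633 and 655 in ARP1, and 1486 and 1379 in OCI-MY5, so no 2 lines overlapped. Differences were −1.87 (SE 0.18) for OPM2 minus ARP1, −3.0 (SE 0.18) for OPM2 minus OCI-MY5 and −1.13 (SE 0.18) for ARP1 minus OCI-MY5 on the log2 scale (limma, adjusted p = 0.00328, 0.000961 and 0.0489). Another MET probe set, 211599_x_at, read 33.2 and 130 in OPM2, 129 and 180 in ARP1, and 144 and 143 in OCI-MY5, and separated ARP1 from OCI-MY5 by 0.08 only. With the mean of MET's 4 probe sets, OPM2 minus OCI-MY5 was −1.13 (adjusted p = 0.0604) and OPM2 minus ARP1 −0.77 (0.153). The ARP1 minus OCI-MY5 call was lost without any 1 of the ARP1 and OCI-MY5 arrays (adjusted p = 0.238 to 0.294), with either scaling (0.0643 and 0.202), with a pseudocount of 1 (0.0600), with a CD24 term (0.0995), with no filter on dim genes (0.178) and with the mean of probe sets (0.585). MST1R, the MET relative that binds the ligand MST1, was above background on no array.

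Among the FGF receptors, FGFR4 was lower in OPM2 on the probe set that represents it, and FGFR1 and FGFR2 did not pass. FGFR4 read 21.8 and 53.5 in OPM2, against 195 and 177 in ARP1 and 138 and 112 in OCI-MY5. Both OPM2 arrays were not well above background, so the ratio is a bound: taken against the background limit, as throughout, FGFR4 was at least 1.93-fold higher in ARP1 and at least 1.30-fold higher in OCI-MY5 than in OPM2. The fitted differences were −1.98 (SE 0.33) for OPM2 minus ARP1 and −1.46 (SE 0.33) for OPM2 minus OCI-MY5 (limma, adjusted p = 0.0148 and 0.0317). The call against ARP1 was lost without the ARP1 CD24+ array (0.0984) or its CD24- array (0.0867). The call against OCI-MY5 was lost without any 1 of the ARP1 and OCI-MY5 arrays (adjusted p = 0.0786 to 0.152), with a CD24 term (0.0548) and with no filter on dim genes (0.0850). The 3 other FGFR4 probe sets pointed the other way, with fitted differences of 0.62 to 2.33 for OPM2 minus ARP1. Each of those was above background on the OPM2 CD24+ array alone, at 160 to 226. FGFR4's direction thus rests on 1 probe set, and with the mean of its 4 probe sets and no filter OPM2 minus ARP1 was 0.74 (adjusted p = 0.432).

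FGFR1, which binds FGF2 among other ligands, read 723 and 295 in OPM2, 481 and 254 in ARP1, and 446 and 383 in OCI-MY5. In each line the CD24+ array was the higher. Its probe set is of a kind, x_at, that can bind transcripts of related genes. On another of its probe sets, 211535_s_at, FGFR1 read 33.4 and 80.5 in OPM2, 452 and 481 in ARP1, and 163 and 114 in OCI-MY5. OPM2 was not well above background on it, and it differed between lines when every probe set was tested on its own (F adjusted p = 0.0230). Over the FGFR1 probe sets, OPM2 minus ARP1 ran from −2.80 on this one to 0.45 on 207937_x_at. With the mean of all probe sets FGFR1 was called lower in OPM2 than in ARP1, as were 1440 of 10822 genes. It did not pass the F test there. FGFR2, which with FGFR1 shares many FGF ligands, read 206 and 139 in OPM2, 142 and 59.0 in ARP1, and 121 and 99.8 in OCI-MY5, and its lines overlapped.

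Of both TRK receptors listed, NTRK3 was higher in OPM2, and NTRK2 did not pass. NTRK3, the receptor for neurotrophin-3, read 359 and 342 in OPM2, against 37.1 and 38.7 in ARP1 and 15.5 and 50.2 in OCI-MY5. It was above background in OPM2 only, at least 3.63-fold over ARP1 and over OCI-MY5. The fitted differences were 2.76 (SE 0.37) and 3.0 (SE 0.37) on the log2 scale (limma, adjusted p = 0.00833 and 0.00621). The call against ARP1 was lost without the CD24+ array of ARP1 (0.0681) and without its CD24- array (0.0661). Of the 8 other NTRK3 probe sets, all had a positive difference against OCI-MY5 (0.36 to 3.65) and 6 against ARP1 (−0.84 to 2.72 over the 8). The next brightest, 1557795_s_at, read 118 and 104 in OPM2, 46.2 and 18.6 in ARP1, and 92.7 and 73.0 in OCI-MY5. Farthest apart was 215025_at, which read 307 and 206 in OPM2, against 64.9 and 4.47 in ARP1 and 2.73 and 8.41 in OCI-MY5. NTRK2, the receptor for BDNF, read 108 and 175 in OPM2, 249 and 109 in ARP1, and 29.3 and 44.6 in OCI-MY5. OCI-MY5 lay below the other lines without overlap, and the F test gave an adjusted p of 0.0573.

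The ephrin receptors bind ephrins on neighbouring cells. EPHB1, which binds ephrin-B ligands, read 279 and 336 in OPM2, 354 and 289 in ARP1, and 103 and 80.0 in OCI-MY5. OPM2 and ARP1 overlapped, and both lay above OCI-MY5. The difference was 1.59 (SE 0.22) for OPM2 minus OCI-MY5 and 1.65 (SE 0.22) for ARP1 minus OCI-MY5 (limma, adjusted p = 0.00835 and 0.0375). The ARP1 minus OCI-MY5 call was lost without any 1 of the arrays of those lines (adjusted p = 0.169 to 0.279), with either scaling (0.0652 and 0.169), with a pseudocount of 1 (0.0502), with a CD24 term (0.0842) and with no filter (0.138). For OPM2 minus OCI-MY5, centring each array on its median lowered the difference to 1.20 (adjusted p = 0.0861), and leaving out the OCI-MY5 CD24- array gave 1.44 (0.0641). EPHB6, a family member without kinase activity, read 110 and 89.8 in OPM2, 232 and 177 in ARP1, and 201 and 128 in OCI-MY5. OPM2 was lowest on both arrays, and the difference did not pass (F adjusted p = 0.110). EPHB6 was called lower in OPM2 than in ARP1 with quantile normalization, as were 1892 of 12075 genes. The same held with a CD24 term, for EPHB6 and 1457 of 12078 genes. EPHB6 passed the F test in neither setting. Of the 10 ephrin receptors with a probe set, 2 were above background on both arrays of a line and 3 on no array. Of all 46 receptors these were 20 and 13, and of all 19775 genes 11630 and 4242.

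In the TAM family, whose ligands GAS6 and PROS1 bridge to dying cells, MERTK was higher in OCI-MY5. It read 151 and 39.7 in OPM2, 127 and 88.1 in ARP1, and 485 and 499 in OCI-MY5. Both OCI-MY5 arrays were above all others, and OPM2 minus OCI-MY5 was −2.40 (SE 0.54; limma, adjusted p = 0.0313). This call was lost when dim genes were kept in the fit (adjusted p = 0.0774), without either ARP1 array (0.0732 each) and without the CD24+ or CD24- array of OCI-MY5 (0.128 and 0.138). ARP1 minus OCI-MY5 was −2.06 (adjusted p = 0.110). The 2 other MERTK probe sets were above background on no array. TYRO3 read 287 and 286 in OPM2, 344 and 430 in ARP1, and 348 and 268 in OCI-MY5, with lines overlapping. AXL passed the background limit on the OCI-MY5 CD24+ array alone, at 108.

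RYK, ROR1 and PTK7, which bind Wnt proteins or act in Wnt signalling, differed in how evenly they were found. RYK, whose kinase domain is inactive, read 1874 and 1871 in OPM2, 1271 and 1246 in ARP1, and 1694 and 1645 in OCI-MY5. These pairs were close and did not overlap, yet the F test did not pass (adjusted p = 0.0917). With quantile normalization RYK was called higher in OPM2 than in ARP1, as were 1485 of 12075 genes, but did not pass the F test. With a higher brightness limit, the 75th percentile, which left 7639 genes to test, RYK and IGF1R passed, as did 52.3% of those genes. ROR1, a receptor for WNT5A, read 138 and 200 in OPM2, 217 and 187 in ARP1, and 182 and 240 in OCI-MY5, all overlapping. PTK7 read 191 and 8.66 in OPM2, 160 and 141 in ARP1, and 47.7 and 83.2 in OCI-MY5. Its reading in OPM2 came from the CD24+ array only: with either OPM2 array left out, the 1 that stayed decided whether PTK7 was below or above OCI-MY5.

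Among the other receptors, DDR2 was present in every line and the rest in 1 or 2. DDR2, a receptor for fibrillar collagen, read 339 and 471 in OPM2, 306 and 196 in ARP1, and 325 and 332 in OCI-MY5, with lines overlapping. FLT1, a VEGF receptor, read 227 and 223 in OPM2, 201 and 98.1 in ARP1, and 86.2 and 138 in OCI-MY5, where 1 array was below background. CSF1R, the receptor for CSF1 and IL34, read 100.2 and 106 in OPM2, 162 and 58.5 in ARP1, and 13.0 and 56.8 in OCI-MY5. The OPM2 values lay just above the limit. Of the 3 monocyte markers, LYZ alone passed it in OPM2, at 108 on the CD24+ array. ERBB3, which pairs with other ERBB receptors to bind neuregulins, read 217 and 36.7 in OPM2, 184 and 131 in ARP1, and 71.9 and 140 in OCI-MY5. LTK, a relative of ALK, read 186 and 19.2 in OPM2, 231 and 200 in ARP1, and 59.2 and 33.4 in OCI-MY5. Both ARP1 arrays were above all others, and LTK was at least 2.23-fold higher in ARP1 than in OCI-MY5 by the bound, which did not pass (limma, adjusted p = 0.242). None of these 5 passed the F test. With the mean of all probe sets LTK passed it, and was called lower in OPM2 than in ARP1. A second LTK probe set, 217184_s_at, read 7.60 and 33.7 in OPM2, 203 and 213 in ARP1, and 20.0 and 97.8 in OCI-MY5. Without the OPM2 CD24+ array LTK and PTK7 joined the calls, and without the OPM2 CD24- array EGFR and IGF1R did so too.

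When each of the 27307 probe sets above the limit was tested on its own, 8 of 45 receptor probe sets differed between lines, against 16% of all probe sets. They belonged to 6 receptors: 3 to INSR and 1 each to MET, NTRK3, EPHB1, FGFR4 and FGFR1. MERTK missed the threshold there (F adjusted p = 0.0633). This test was added after the values were seen. EPHA4, an ephrin receptor whose representing probe set read 197 and 80.8 in OPM2, had a second one, 227449_at, at 244 and 295 in OPM2, against 52.4 and 41.4 in ARP1 and 2.13 and 24.6 in OCI-MY5. That probe set, below the brightness limit on average, was above background in OPM2 alone.

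Between the CD24+ and CD24- fractions no receptor passed the test, and neither did any other gene (0 of 12078, 0%; limma, lowest adjusted p = 1). This fit had no term for the line, so differences between lines added to its spread and made a call harder to reach. Without adjustment 1 receptor, FGFR1, had p below 0.05 in it (0.0468), and 149 of all genes did (1.23%). With the cell line as a block 0 receptors passed as well (lowest adjusted p = 0.847), and 2 of 24 were below 0.05 unadjusted (8.33%), against 560 of all genes (4.64%). The median difference over the 24 receptors was 0.12 on the log2 scale, against 0.03 over all genes. Within lines the median was 0.23 for OPM2, 0.18 for ARP1 and 0.11 for OCI-MY5. After quantile normalization it was −0.06, and after centring −0.22, where the median of all genes was −0.30. Without the OPM2 CD24+ array it was 0.01 (0.0067), and without the OCI-MY5 CD24+ array 0.42, so it depended on single arrays.

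Higher in the CD24+ fraction of every line were 5 of 24 receptors (20.8%), and lower in every line were 0. Of all genes 16.9% were higher and 12.2% lower in every line. With quantile normalization the counts were 3 and 2, and with centring 2 and 3, so the direction of the set was not kept. FGFR1 averaged 549.8 ± 151 intensity units in CD24+ and 311 ± 65.9 in CD24- cells (SD, n = 3 lines). OPM2 had a log2 difference of 1.25, ARP1 of 0.88 and OCI-MY5 of 0.21, and all 3 stayed above 0 with both scalings. On its second brightest probe set, 222164_at, the CD24+ arrays were the lower ones in each line, at 195 against 341 in OPM2, 226 against 392 in ARP1 and 213 against 322 in OCI-MY5. FGFR2 averaged 157 ± 44.2 in CD24+ and 99.3 ± 40.0 in CD24- cells, and EPHB6 averaged 181 ± 63.6 and 132 ± 43.8 (SD, n = 3 lines). Both turned negative in OPM2 with either scaling. RYK averaged 1613 ± 310 and 1587 ± 317, and its log2 differences of 0.00 to 0.04 turned negative with centring. LTK, the fifth, was above background on 3 arrays only.

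**Figure D4:**
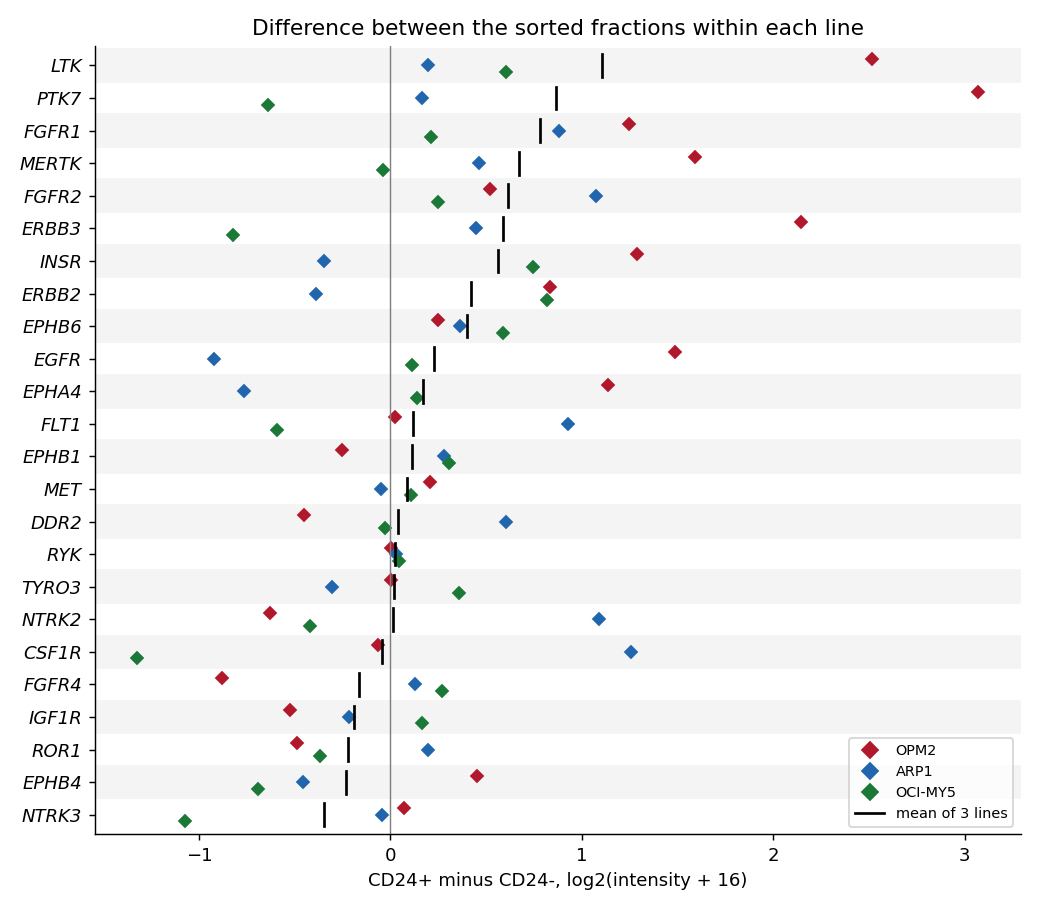
Differences between the CD24+ and CD24- arrays of each line on the log2(intensity + 16) scale for the 24 receptors tested, ordered by their mean over the 3 lines (black bar). Diamonds are OPM2, ARP1 and OCI-MY5 by colour. The widest differences are those of OPM2, up to 3.07 for PTK7, while OCI-MY5 spans −1.33 to 0.82 and ARP1 −0.92 to 1.26.

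Differences of at least 1 (log2) between the fractions were found for 8 receptors in OPM2, all higher in CD24+ cells, for 3 in ARP1, all higher, and for 2 in OCI-MY5, both lower. The share of all genes past the same cut was not counted, so these counts do not set receptors apart. None of the differences has a replicate check, since each line has 1 array per fraction. In OPM2 these were on the array with the high median. The largest was 3.07 for PTK7, and in the same line FGFR4 had the lowest difference, −0.88.

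Ligands of these receptors were also set against the lines. Of 56 ligand genes listed, 50 had a probe set, 32 were tested and 16 differed between lines (50%), against 28.5% of all genes. Their median difference was −0.35 for OPM2 minus ARP1 and 0.01 for OPM2 minus OCI-MY5. GAS6, the ligand of the TAM receptors, read 3653 and 2766 in OPM2, against 428 and 436 in ARP1 and 143 and 214 in OCI-MY5, with a log2 difference of 4.06 (SE 0.26) for OPM2 minus OCI-MY5 (limma, adjusted p = 0.00116). MERTK, its receptor, was highest in OCI-MY5. IGF1, the ligand of IGF1R, read 438 and 315 in OPM2, against 88.0 and 30.8 in ARP1 and 45.3 and 49.4 in OCI-MY5. FGF9, a ligand of FGF receptors, read 369 and 426 in OPM2 and was not well above background in ARP1 (56.6 and 70.1) or OCI-MY5 (24.6 and 12). Both were above background in OPM2 only. PTN, a heparin-binding growth factor reported to act through ALK, read 5.24 and 51.7 in OPM2, against 1493 and 1760 in ARP1 and 1451 and 1518 in OCI-MY5. EFNA3, an ephrin, read 556 and 269 in OPM2 and 23.9 to 78.7 in the other lines. PDGFD, a ligand of PDGFRB, read 198 and 118 in OPM2, 338 and 351 in ARP1, and 15.5 and 63.9 in OCI-MY5. HGF, the ligand of MET, read 363 and 128 in OPM2, 170 and 62.9 in ARP1, and 125 and 98.4 in OCI-MY5. It did not differ by the test (F adjusted p = 0.400). NRG3, a ligand of ERBB4, read 964 and 785 in OPM2 and at most 19.6 elsewhere. It lay below the brightness limit on average and was not tested.

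Of 38 adaptor and relay genes listed, 28 had a probe set, 27 were tested and 5 differed between lines (18.5%, against 28.5% of all genes), with a median of −0.36 for OPM2 minus ARP1 and −0.08 for OPM2 minus OCI-MY5. GAB2, a docking protein, read 16.8 and 77.2 in OPM2, not well above background, against 249 and 275 in ARP1 and 202 and 242 in OCI-MY5. GRB14, an adaptor that binds the insulin receptor, read 466 and 650 in OPM2, 669 and 633 in ARP1, and 204 and 112 in OCI-MY5. CRKL, SOS2 and PLCG1, which pass signals to RAS and to phospholipid turnover, were the other 3. CRKL was highest in ARP1 (7073 and 8095), SOS2 lowest in OPM2 (609 and 670) and PLCG1 highest in OPM2 (693 and 488).

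Genes that ERK signalling induces and that often restrain it differed in 6 of 13 tested (46.2%, against 28.5% of all genes), and not in 1 direction. The list median was −0.16 for OPM2 minus ARP1 and −0.44 for OPM2 minus OCI-MY5. DUSP4, a phosphatase of MAP kinases, read 18251 and 16313 in OPM2, against 987 and 842 in ARP1 and 420 and 254 in OCI-MY5. DUSP5, a phosphatase of ERK, read 761 and 1211 in OPM2, 1093 and 1054 in ARP1, and 7345 and 8637 in OCI-MY5. SPRY2 and SPRY4, Sprouty inhibitors of receptor signalling, went opposite ways. SPRY2 read 219 and 158 in OPM2, against 28.3 and 25.4 in ARP1 and 43.0 and 58.7 in OCI-MY5, and SPRY4 read 58.0 and 56.3 in OPM2, against 298 and 202 in ARP1 and 453 and 388 in OCI-MY5. IER3, an immediate early gene, was not well above background in OPM2 (89.6 and 87.8) and read 300 to 454 in the other lines. ETV5, an ETS transcription factor, read 212 and 280 in OPM2, 764 and 416 in ARP1, and 823 and 1107 in OCI-MY5. OPM2 is also the line with FGFR3 at 55028 and 44707, and the part of FGFR3 in these values was not tested.

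**Figure D5:**
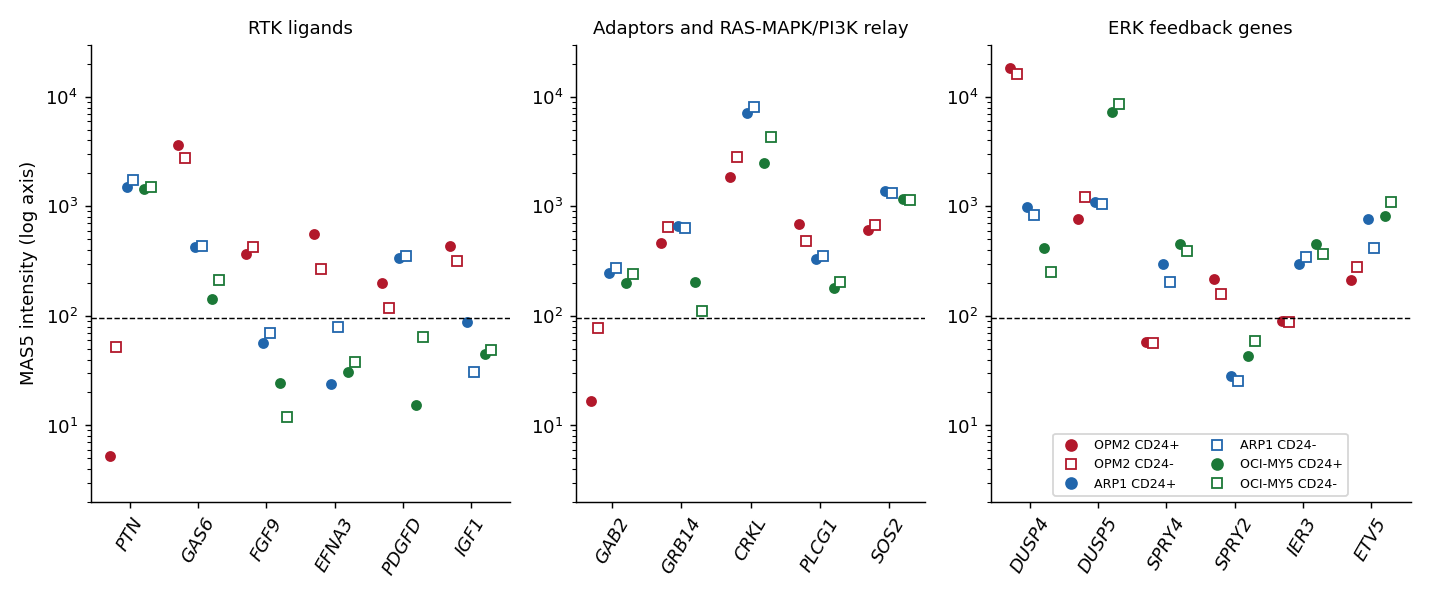
MAS5 intensity (log axis) of the ligand, adaptor and ERK-induced genes named from their lists, by line (colour) and fraction (filled circle CD24+, open square CD24-), with background dashed. In OPM2, GAS6 and DUSP4 lie above the other lines, at 3653 and 18251 on the CD24+ array, and PTN lies below them at 5.24.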

How the data were processed

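RNA of CD24+ and CD24- cells of 3 lines was measured on 6 Affymetrix U133 Plus 2.0 arrays. Per the labels and the submitters' processing notes, the deposited numbers are linear MAS5 intensity values that the authors made with Affymetrix Expression Console 1.1; the build is not given in the sources used here. MAS5 scales each array by 1 factor, and the OPM2 CD24+ array, with the highest median, had the most genes above background. Genes were named from the platform annotation, updated by gene ID to RefSeq GRCh38.p14. Of 54675 probe sets, 41091 had 1 gene, 1801 several and 11721 none, and 62 controls were left out.

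From the deposited intensity values, log2(intensity + 16) was computed; this scale understates changes of dim genes. Each gene was represented by its brightest probe set, and 12078 genes whose mean reached the median probe set (6.36) entered the fits, made with lmFit and eBayes of limma 3.58.1 under R 4.3.3 (two-sided, Benjamini-Hochberg adjustment at 0.05). The line fit had 3 residual degrees of freedom. The CD24 fit had no block, as the series states none; same-numbered arrays come from the same line, and their deviations correlated at 0.70, 0.71 and 0.77, so the line as a block was the alternative. The fits were tested on simulated data with independent arrays. The CD24 fit was thus not tested on data whose lines differ. Members, lists and tests were chosen with earlier results of these data known. Every array's value is given for receptors above background on both arrays of a line or past the F test, for CD24 those above background on 4 or more arrays with 1 direction, and from each pathway list up to 6 called genes with the largest range; HGF, NRG3, EPHA4 and LTK's CD24 difference were named after their values were seen. Alternatives were pseudocounts of 1 and 64, other limits on dim genes and background, quantile normalization, median centring, other probe set choices, a CD24 term and leaving out each array.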

Additional observations from a re-analysis of the deposited data

Results flagged for a closer look

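The first results come from probe sets that the comparisons did not use. For EPHA4, the probe set 227449_at was above background on both OPM2 arrays, the lower at 244 intensity units, while the probe set that represents the gene was not. For DDR1, the probe set 210749_x_at, which is annotated to DDR1 and to MIR4640 and so was left out, was above background on all 6 arrays, the lowest at 154. Its values were 298 and 154 in OPM2, 390 and 363 in ARP1, and 239 and 162 in OCI-MY5 (CD24+ and CD24-). A second shared DDR1 probe set, 1007_s_at, read 45.5 and 91.3 in OPM2, not well above background, against 331 and 419 in ARP1 and 245 and 131 in OCI-MY5.

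The sign of the CD24+ minus CD24- difference was not the same in every line for 19 of the 24 receptors tested, and for 16 of them this held among lines in which at least 1 array was above background. The sign was the same in all 3 lines for 20.8% of the receptors and 29.1% of all genes. The share of all genes that meet the condition on background was not counted, so the count of 16 does not set receptors apart. Each difference is between 1 CD24+ and 1 CD24- array on the log2(intensity + 16) scale, and the difference between lines was not tested. The OPM2 CD24+ array, which had the most genes above background, is part of every OPM2 value.

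Of these 16, EGFR, ERBB3 and EPHA4 lay furthest apart with OPM2 as the positive line. PTK7, outside the 16 because both its OCI-MY5 arrays were below background, differed more, by 3.07 in OPM2 and −0.64 in OCI-MY5. EGFR differed by 1.49 in OPM2 and −0.92 in ARP1. ERBB3 differed by 2.15 for OPM2 cells, 0.45 for ARP1 and −0.82 for OCI-MY5, and EPHA4 by 1.14 in OPM2 and −0.76 in ARP1. NTRK2 and CSF1R were positive in ARP1 instead: NTRK2 differed by −0.63 in OPM2 and 1.09 in ARP1, and CSF1R by −0.06 (−0.0647) in OPM2 and 1.26 in ARP1.

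The insulin receptor INSR differed by 1.29 for OPM2 cells, −0.35 for ARP1 and 0.74 for OCI-MY5. ERBB2 had the same pattern of signs, at 0.83, −0.39 and 0.82 in OPM2, ARP1 and OCI-MY5. MERTK differed by 1.59 for OPM2 cells, 0.46 for ARP1 and −0.04 (−0.0386) for OCI-MY5. FLT1 differed by 0.02 (0.0216) for OPM2 cells, 0.93 for ARP1 and −0.59 for OCI-MY5, and DDR2 by −0.45, 0.60 and −0.03 (−0.0284) in the same order of lines. EPHB4 differed by 0.45 for OPM2 cells, −0.46 for ARP1 and −0.69 for OCI-MY5.

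The other 5 of these receptors had smaller differences. IGF1R differed by −0.52 for OPM2 cells, −0.22 for ARP1 and 0.17 for OCI-MY5. TYRO3 differed by 0.00 (0.0047) for OPM2 cells, −0.31 for ARP1 and 0.36 for OCI-MY5, and MET by 0.21, −0.05 (−0.0483) and 0.11. EPHB1 differed by −0.25 for OPM2 cells, 0.28 for ARP1 and 0.31 for OCI-MY5. ROR1 differed by −0.49 for OPM2 cells, 0.20 for ARP1 and −0.37 for OCI-MY5.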

How the results depend on the processing

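The counts of receptors called depended on the settings and on single arrays, with 2 arrays per line as the limit, and FGFR4 turned direction: with the mean of all probe sets and no filter on dim genes, a setting chosen after seeing the data, its OPM2 minus ARP1 difference of −1.98 became 0.74 (0.73775; limma, adjusted p = 0.432). INSR kept its direction and its call there, and MET, NTRK3, EPHB1 and MERTK their direction only. With the filter kept, the mean of probe sets could be tested, of the 6 called receptors, for INSR and MET alone. The receptors that passed the F test there were INSR and LTK, and MET did not pass. The other settings turned none of the 6 in its strongest contrast where it was tested. Leaving out 1 array leaves a line with 1, assumed to vary like the others. The F count of 6 became 3 of 46 receptors without a filter on dim genes, which tests more genes, against 6.86% of all genes. It became 2 of 11 with the mean of all probe sets, against 22.8% of genes. Other settings with all arrays, every probe set on its own included, gave 4 to 6. Without 1 array the F count fell or rose with the share of all genes called. The numbers of all genes called in each contrast moved too, so the contrast counts do not set receptors apart. OPM2 minus ARP1 (4) ran from 1 to 7 without 1 array. OPM2 minus OCI-MY5 (6) became 3 at the 75th percentile limit, 1 with the mean of probe sets, and ran from 2 to 10 without 1 array. ARP1 minus OCI-MY5 (2) became 0 with a pseudocount of 1, no filter, the mean of probe sets or a CD24 term, 1 at the 75th percentile limit, with quantile normalization or with centring, and ran from 0 to 4 without 1 array. Centring moved the median of all genes to −0.30 for OPM2 minus ARP1 and −0.40 for OPM2 minus OCI-MY5, where 22.2% and 22.5% of called genes were higher, against 40.6% and 43.5%; the receptors called were then 2 higher and 2 lower, and 2 higher and 3 lower. With each array's own TrpnX limit, OCI-MY5 had 23 receptors above background (all genes 62.8%). All 3 lines together then had 15, for which the share of all genes was not counted. At 2 times the limit, OPM2 and ARP1 had 9 each (all genes 42.7% and 45.8%). After quantile normalization OCI-MY5 had 20 (all genes 57.3%). The median CD24 difference of 0.12 became 0.18 without a filter, −0.0556 with quantile normalization and −0.22 with centring, and ran from 0.0067 to 0.42 without 1 array or line. With the cell line as a replicate block, as with every other setting, 0 receptors passed between the fractions; the block changed no call. The causes of these shifts were not tested.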
